A study of Homo sapiens with 24 samples.

Results

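The genes described here are 2 members of the p53 family of transcription factors, TP63 and TP73, and 7 genes that p53 is known to switch on: MDM2, ZMAT3, FAS, GDF15, TP53INP1, FDXR and SESN1. They were chosen by name, with earlier results of these data known, and their rows were found in the gene count table by Ensembl identifier, version removed. All 9 symbols matched 1 row each of the 60668 rows, and all 9 passed the filter on low counts, which left 22158 genes for testing. On GRCh38 (GENCODE 29), all 9 being protein-coding genes, the family members lie as follows: TP63 (ENSG00000073282) at chr3:189631416-189897279, plus strand, and TP73 (ENSG00000078900) at chr1:3652520-3736201, plus strand. MDM2 and the FAS receptor gene were annotated so: MDM2 (ENSG00000135679) at chr12:68808176-68850686, plus strand, and FAS (ENSG00000026103) at chr10:88990582-89015785, plus strand. The other targets were annotated so: ZMAT3 (ENSG00000172667) at chr3:179017223-179072279, minus strand, GDF15 (ENSG00000130513) at chr19:18374731-18389176, plus strand, TP53INP1 (ENSG00000164938) at chr8:94925972-94949411, minus strand, FDXR (ENSG00000161513) at chr17:74862497-74873031, minus strand, and SESN1 (ENSG00000080546) at chr6:108986437-109094819, minus strand.

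The p53 protein is a transcription factor that rises under DNA damage and other stress and switches on genes for growth arrest, repair, metabolism and cell death. MDM2, one of its targets, encodes the ubiquitin ligase that marks p53 for breakdown, so that the pair forms a feedback loop. Its relatives p63 and p73 share the DNA-binding domain; p63 maintains the basal layer of epithelia such as the mammary gland, and both genes use alternative promoters that give forms with or without the activation domain, which a count per gene cannot tell apart.

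RNA was sequenced from MCF-10A, an immortalised human mammary epithelial line that is not derived from a tumour, and from a derivative that expresses MYC-ER. In MYC-ER the MYC oncoprotein is joined to the hormone-binding domain of the oestrogen receptor and becomes active when 4-hydroxytamoxifen (4-OHT) binds. Each line was sampled after 0, 8, 24 and 48 h of 1 µM 4-OHT, with 3 libraries in each of the 8 groups and 24 in all. Every culture, the 0 h ones included, was grown in 3 dimensions on Matrigel and harvested on the same day, so the times are lengths of exposure before a common end. The groups are called MYC-ER and parental, each with its time. The labels do not say how the MYC-ER line was made, whether it is 1 clone, or whether 0 h cultures received the solvent. Nothing in them says that replicates came from separate passages, so p-values measure the spread between these libraries, which may be technical.

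Library totals ran from 136860029 to 182438505 counts, and replicates of a group had Spearman correlations of 0.983 to 0.992 over genes. The parental 0 h libraries, the reference of every parental change, stood farther apart than others: their counts differed from each other with a chi-square per degree of freedom of 159 to 261, against 8.45 to 63.3 within each other group. All 9 epithelial markers reached 1 CPM (counts per 1000000 counts of a library, scaled by TMM factors). Of 7 fibroblast markers 3 did, with a summed level of 370 to 377 CPM in MYC-ER 0 h libraries and 77.3 to 133 CPM in every other group. COL1A1 and DCN carried that sum, while COL3A1, COL1A2, PDGFRA and LUM stayed at or below 0.304 CPM. Endothelial markers summed to 0.0812 to 2.99 CPM with CDH5 at 0, and immune markers to 8.28 to 26.5 CPM. Of 5 immune markers 2 reached 1 CPM, CD14 with 2.87 to 9.03 CPM and CD68 with 4.2 to 23.6 CPM, while CD3E was at 0 and PTPRC was at most 0.0124 CPM. The mitochondrial share of counts was 9.24% to 9.71% in MYC-ER 0 h libraries, 5.61% to 6.58% at 8 h, and 3.86% to 7.28% in parental 0 h libraries. Their part in the results was not tested. CDKN2A, which encodes the MDM2 inhibitor ARF and is deleted in MCF-10A, had 0 counts in all 24 libraries, which allows a level of up to 0.0219 CPM in the smallest of them (3 counts). In bulk RNA, fewer cells of a type and less RNA per cell cannot be told apart.

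Promoter windows of the genes were searched for letters bound by p53, by MYC and by E2F factors. RefSeq (GRCh38.p14) gave 19 windows of 300 bases, from 250 before to 50 after an annotated start, for 8 of the 9 genes. Motifs were the p53 half-site consensus, the E-box CACGTG that MYC binds, and the E2F letters TTTGGCGC or TTTCGCGC, on both strands. Only exact matches were counted, so a window without one may still hold a site that departs from these letters. The half-site was found in 3 of the 19 windows, 1 each of FDXR, SESN1 and FAS, against 6.63% of all 35116 windows. CACGTG was found in 1, at an inner start of TP73, against 7.26% of all windows. E2F letters were found in 3, at the first start of TP73 and at 2 overlapping starts of MDM2, against 1.15% of all. These 4 windows are printed because they hold the p53 or MYC letters, in capitals, and because 3 of their genes fell at 8 h while FAS did not; all run 5′ to 3′ on the gene's strand.
FDXR, chr17:74872945-74873244, minus strand: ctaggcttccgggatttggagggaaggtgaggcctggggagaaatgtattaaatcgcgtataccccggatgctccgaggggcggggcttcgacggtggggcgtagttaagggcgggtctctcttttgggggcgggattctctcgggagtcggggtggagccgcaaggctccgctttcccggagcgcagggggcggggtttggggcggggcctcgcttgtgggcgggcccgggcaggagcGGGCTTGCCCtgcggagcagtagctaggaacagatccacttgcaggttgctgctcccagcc
SESN1, chr6:109008939-109009238, minus strand: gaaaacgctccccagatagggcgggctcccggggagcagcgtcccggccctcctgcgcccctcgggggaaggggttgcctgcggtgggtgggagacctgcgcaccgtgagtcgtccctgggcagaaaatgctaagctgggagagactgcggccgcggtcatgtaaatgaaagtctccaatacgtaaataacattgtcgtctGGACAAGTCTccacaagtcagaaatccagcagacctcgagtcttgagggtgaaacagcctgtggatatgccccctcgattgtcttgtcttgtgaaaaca
FAS, chr10:88991181-88991480, plus strand: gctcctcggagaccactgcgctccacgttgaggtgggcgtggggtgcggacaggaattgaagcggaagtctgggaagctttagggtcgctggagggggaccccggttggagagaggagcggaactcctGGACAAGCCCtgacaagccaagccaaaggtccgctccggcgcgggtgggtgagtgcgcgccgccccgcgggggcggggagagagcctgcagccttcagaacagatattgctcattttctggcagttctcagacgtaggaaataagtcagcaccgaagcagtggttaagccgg
TP73, chr1:3697796-3698095, plus strand: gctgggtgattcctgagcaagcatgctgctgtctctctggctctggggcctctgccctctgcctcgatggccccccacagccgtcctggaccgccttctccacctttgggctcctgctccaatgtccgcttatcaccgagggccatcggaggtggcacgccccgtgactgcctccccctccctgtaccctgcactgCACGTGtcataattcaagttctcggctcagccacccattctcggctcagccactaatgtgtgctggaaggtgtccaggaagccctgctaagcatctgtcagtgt
The capitals lie 11 to 2 bases before the start in FDXR, 49 to 40 before it in SESN1, 122 to 113 before it in FAS, and 54 to 49 before it in TP73. A match of letters is a description and shows no binding.

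After 8 h of 4-OHT all 9 genes differed from 0 h in MYC-ER cells by edgeR's quasi-likelihood test at a Benjamini-Hochberg adjusted p under 0.05, which is what "called" means here. TP63, TP73, ZMAT3, GDF15, TP53INP1, FDXR and SESN1 fell, and MDM2 and FAS rose. Among all genes tested 67.6% were called, 32.2% higher and 35.4% lower. The replicates of both times did not overlap for any of the 9, as for 73.5% of all genes. The median of the 9 log2 changes was -1.0, beside -0.10 over all genes. As the 9 were chosen with earlier results of these data known, these counts and medians are a description only.

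**Figure D1:**
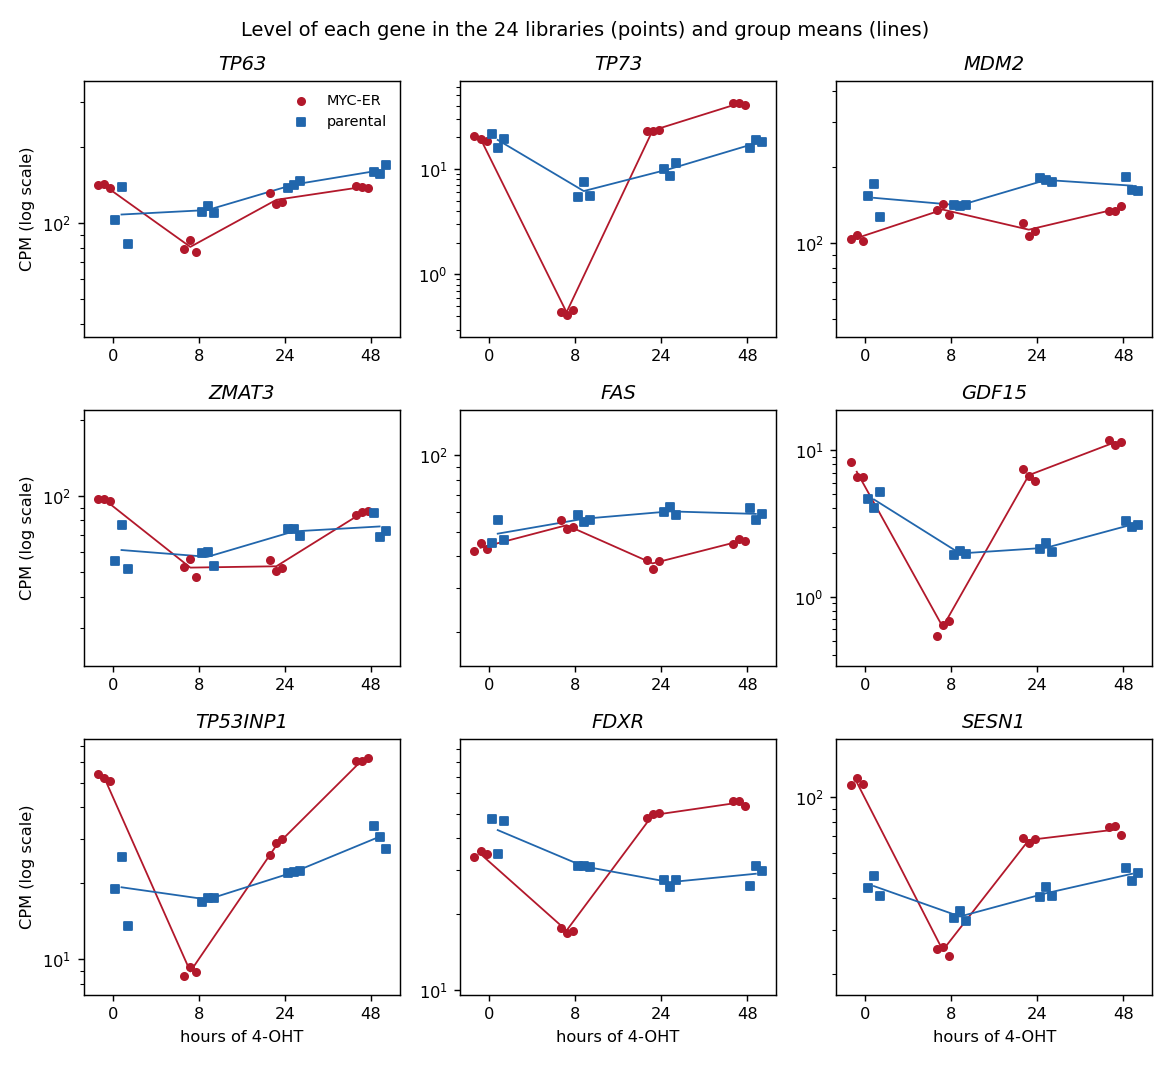
Level of each of the 9 genes in TMM-scaled CPM on log axes, whose range differs between panels, against hours of 4-OHT. Points are the 24 libraries (red circles MYC-ER, blue squares parental) and lines join group means; in MYC-ER cells TP73 drops from 19.4 to 0.438 CPM at 8 h and stands at 41.9 CPM at 48 h.

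TP73, the family member with the widest range, was nearly lost at 8 h in MYC-ER cells and was highest there at 48 h. Its 3 MYC-ER libraries had 20.4, 19.3 and 18.5 CPM at 0 h and 0.441, 0.411 and 0.460 CPM at 8 h, the latter from 61, 58 and 69 counts. They had 23.1, 23.0 and 23.6 CPM at 24 h and 42.8, 42.6 and 40.3 CPM at 48 h. No library of 1 MYC-ER time overlapped another time. The fall at 8 h was 44.2-fold (log2 -5.47, SE 0.15, adjusted p = 4.35e-18), and the rise from 8 to 24 h was 53-fold (log2 5.73, SE 0.15, adjusted p = 4.06e-18). At 24 h the difference from 0 h was not called (log2 0.26, adjusted p = 0.0521), although the libraries did not overlap, and at 48 h TP73 was above 0 h (log2 1.11, SE 0.11, adjusted p = 5.11e-08). The 24 h difference was called with DESeq2's size factors (log2 0.29, adjusted p = 0.0339) and with scaling by library size alone (log2 0.38, adjusted p = 0.00548). The gene shares bases with genes on the other strand, among them TP73-AS1 (691 bases) and WRAP73 (242 bases). Neither was called at 8 h, TP73-AS1 at 25.2 against 27.3 CPM (log2 -0.11, adjusted p = 0.0973) and WRAP73 at 36.8 against 34.2 CPM (log2 0.11, adjusted p = 0.114). Whether the counting used strand is not given in the sources used here.

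In parental cells TP73 also fell at 8 h, from 21.3, 15.9 and 19.5 CPM to 5.47, 7.52 and 5.56 CPM (3.06-fold, log2 -1.61, SE 0.12, adjusted p = 1.21e-08). Parental libraries held 8.66 to 11.4 CPM at 24 h and 15.8, 18.9 and 18.1 CPM at 48 h, the last overlapping those at 0 h. The 8 groups ranked from MYC-ER 48 h through MYC-ER 24 h and 0 h, parental 0, 48, 24 and 8 h, to MYC-ER 8 h. Only neighbours among MYC-ER 0 h, parental 0 h and parental 48 h overlapped in that order.

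TP63, the gene of the basal epithelial factor p63, fell to a lesser extent at 8 h in MYC-ER cells. Its libraries had 142, 143 and 138 CPM at 0 h, 79.1, 85.8 and 76.8 CPM at 8 h, 131, 119 and 121 CPM at 24 h, and 140, 139 and 138 CPM at 48 h. All 8 h libraries lay below all others of the line. The fall was 1.75-fold (log2 -0.81, SE 0.11, adjusted p = 9.15e-07), and neither 24 h (log2 -0.19, adjusted p = 0.141) nor 48 h (log2 -0.02) was called against 0 h. Parental 0 h libraries were spread over 103, 139 and 82.5 CPM, wider than in any other group, and those at 48 h had 160, 156 and 169 CPM, the highest of all groups. Parental TP63 was called higher at 24 h (log2 0.39, adjusted p = 0.00506) and at 48 h (log2 0.58, adjusted p = 0.000212). The 24 h value was 0.61 without parental 0 h replicate 2 and 0.25 without replicate 3. It was not called with GC and length trends removed (log2 0.12, adjusted p = 0.195) or with only the 2 groups compared in the fit (log2 0.40, adjusted p = 0.114).

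MDM2, the p53 ligase gene, moved the other way from most of the 9 at 8 h. MYC-ER libraries had 104, 108 and 102 CPM at 0 h and 135, 143 and 129 CPM at 8 h, without overlap (log2 0.38, SE 0.076, adjusted p = 0.000155). At 24 h they had 120, 107 and 112 CPM, which overlapped 0 h and was not called against it (log2 0.12, adjusted p = 0.189). At 48 h they had 134, 134 and 140 CPM (log2 0.38 against 0 h, adjusted p = 0.000288). The range of group means within MYC-ER cells was 1.3-fold, the narrowest of the 9. The dip from 8 to 24 h (log2 -0.26, adjusted p = 0.00593) was not called when libraries were scaled by size alone (log2 -0.06, adjusted p = 0.625) or by the upper quartile (log2 -0.16, adjusted p = 0.0644). In parental cells MDM2 stood at 151 ± 22.5, 141 ± 1.23, 178 ± 3.43 and 169 ± 12.2 CPM over the 4 times in order (SD, n = 3). It was called there at 24 h only (log2 0.23, adjusted p = 0.0159), a call lost without parental 0 h replicate 3 (log2 0.14, adjusted p = 0.0921) or parental 24 h replicate 1 (log2 0.22, adjusted p = 0.0507). Part of MDM2 (8490 bases) overlaps the carboxypeptidase M gene on the other strand, which had 12190 counts over all libraries beside 544571 for MDM2.

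FAS encodes the death receptor CD95, and it too was higher at 8 h in MYC-ER cells. Its libraries had 41.9, 45.0 and 42.6 CPM at 0 h and 55.6, 51.1 and 52.3 CPM at 8 h (log2 0.30, SE 0.065, adjusted p = 0.000395). At 24 h they had 38.5, 35.6 and 38.2 CPM, below every 0 h library (log2 -0.21, adjusted p = 0.00865), and at 48 h 44.5, 46.8 and 45.8 CPM (log2 0.08, adjusted p = 0.33). The 24 h fall was not called without MYC-ER 24 h replicate 2 (log2 -0.17, adjusted p = 0.0507) or with scaling by library size alone (log2 -0.09, adjusted p = 0.307). Parental FAS stood at 49.1 ± 5.85 CPM at 0 h and between 56.2 and 60.1 CPM at later times. ACTA2, which overlaps FAS by 758 bases on the other strand, moved the opposite way at 8 h in MYC-ER cells, from 11.5 to 5.55 CPM (log2 -1.06, adjusted p = 4.52e-08).

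GDF15 encodes a secreted stress cytokine of the TGF-beta family, and its course resembled that of TP73. MYC-ER libraries had 8.23, 6.54 and 6.58 CPM at 0 h and 0.542, 0.646 and 0.680 CPM at 8 h, from 75, 91 and 102 counts. At 24 h they had 7.40, 6.68 and 6.15 CPM and at 48 h 11.7, 10.8 and 11.4 CPM. The 24 h libraries overlapped those at 0 h, the 8 h libraries lay below and the 48 h libraries above all others of the line. The fall at 8 h was 11.4-fold (log2 -3.51, SE 0.12, adjusted p = 2.79e-16), the rise from 8 to 24 h 10.8-fold (log2 3.43, adjusted p = 9.35e-16), and the level at 48 h exceeded 0 h (log2 0.67, adjusted p = 2.76e-05). Parental libraries fell from 4.66, 4.02 and 5.14 CPM at 0 h to 1.92, 2.05 and 1.95 CPM at 8 h (2.34-fold, log2 -1.22, SE 0.11, adjusted p = 2.15e-07). They were still below 0 h at 24 h, with 2.11, 2.33 and 2.03 CPM, and at 48 h, with 3.27, 2.98 and 3.07 CPM. The 48 h fall (log2 -0.57, adjusted p = 0.00032) was not called with the GC trend across genes removed (log2 -0.27, adjusted p = 0.0514) or with GC and length trends removed (log2 -0.16, adjusted p = 0.238).

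TP53INP1, whose nuclear protein takes part in cell death and autophagy, fell at 8 h and stood above its starting level in every 48 h library, a difference that was not called. MYC-ER libraries had 53.8, 52.2 and 50.7 CPM at 0 h, 8.59, 9.35 and 8.91 CPM at 8 h, 25.9, 28.7 and 30.0 CPM at 24 h, and 61.0, 60.9 and 62.5 CPM at 48 h. No time overlapped another. The change from 0 h was log2 -2.54 at 8 h (5.84-fold, SE 0.14, adjusted p = 3.21e-13), -0.89 at 24 h and 0.23 at 48 h (adjusted p = 0.148). The last was called when only the 2 groups compared entered the fit (log2 0.24, adjusted p = 0.000103). Parental 0 h libraries, at 18.9, 25.3 and 13.6 CPM, spanned those at 8 h (16.9, 17.4 and 17.4 CPM), while 48 h libraries reached 33.8, 30.5 and 27.3 CPM (log2 0.66, adjusted p = 0.000337). NDUFAF6, on the other strand over 23440 bases of the same region, rose at 8 h in MYC-ER cells from 9.93 to 14.3 CPM (log2 0.53, adjusted p = 9.82e-07).

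SESN1 encodes sestrin 1, which restrains growth signalling through mTORC1 and counters oxidative stress. MYC-ER libraries had 112, 119 and 113 CPM at 0 h, 25.2, 25.7 and 23.6 CPM at 8 h, 69.1, 66.0 and 68.2 CPM at 24 h, and 76.0, 76.8 and 70.6 CPM at 48 h. Later libraries stayed below all those at 0 h. The change from 0 h was log2 -2.21 at 8 h (4.62-fold, SE 0.065, adjusted p = 1.42e-17), -0.76 at 24 h and -0.62 at 48 h (adjusted p = 3.57e-08). It was called below 0 h at all 3 times in MYC-ER cells. Parental levels over the 4 times were 44.5 ± 4.15, 33.8 ± 1.56, 41.7 ± 2.07 and 49.9 ± 3.05 CPM (SD, n = 3).

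FDXR encodes ferredoxin reductase, which passes electrons to ferredoxin in mitochondria. MYC-ER libraries had 33.6, 35.5 and 34.7 CPM at 0 h, 17.7, 16.8 and 17.2 CPM at 8 h, 47.9, 49.7 and 50.2 CPM at 24 h, and 56.1, 56.2 and 53.3 CPM at 48 h. The level was lowest at 8 h and above 0 h in every later library. Against 0 h it differed by log2 -1.0 at 8 h (SE 0.084, adjusted p = 5.69e-10). It was 0.51 higher at 24 h (adjusted p = 1.39e-05) and 0.67 higher at 48 h (adjusted p = 6.98e-07). Parental FDXR went the other way at the later times, from 47.7, 34.7 and 46.6 CPM at 0 h to 27.3, 25.6 and 27.4 CPM at 24 h (log2 -0.68, adjusted p = 3.04e-06) and 25.9, 31.1 and 29.7 CPM at 48 h (log2 -0.57, adjusted p = 2.68e-05).

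ZMAT3, whose product is a zinc-finger protein that binds RNA, was low after both 8 and 24 h. MYC-ER libraries had 97.7, 97.7 and 95.3 CPM at 0 h, 52.4, 56.2 and 47.7 CPM at 8 h, 55.8, 50.4 and 52.0 CPM at 24 h, and 84.0, 86.8 and 86.9 CPM at 48 h. Libraries at 8 and 24 h overlapped each other and lay below the rest. The falls from 0 h were log2 -0.90 (SE 0.11, adjusted p = 1.86e-07) and -0.88, while 48 h was not called (log2 -0.17, adjusted p = 0.201). Parental levels ran from 57.5 ± 3.77 CPM at 8 h to 75.8 ± 9.05 CPM at 48 h, and neighbouring parental groups overlapped.

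Over the whole course in MYC-ER cells, 5 of the 9 genes were called at 24 h against 0 h, FDXR higher and ZMAT3, FAS, TP53INP1 and SESN1 lower. Of all genes 61.6% were called, 30.4% higher and 31.2% lower. At 48 h 5 were called, with TP73, MDM2, GDF15 and FDXR higher and SESN1 lower, beside 44.1% of all genes, 23.4% higher and 20.7% lower. With only the 2 groups compared in the fit, 8 were called at each of these times. The shares of all genes above come from the fit of all 24 libraries and not from these smaller fits.

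Between 8 and 24 h 6 of the 9 genes rose and 2 fell, beside 55.5% of all genes called, 28.4% higher and 27.1% lower. The 6 were TP63, TP73, GDF15, TP53INP1, FDXR and SESN1, and the 2 were MDM2 and FAS; ZMAT3 was not called (log2 0.02). This comparison shares its 8 h libraries with that of 8 h against 0 h. From 24 to 48 h 6 rose (TP73, MDM2, ZMAT3, FAS, GDF15 and TP53INP1) and 0 fell, beside 53.7% called of all genes, 28.2% higher and 25.5% lower.

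**Figure D2:**
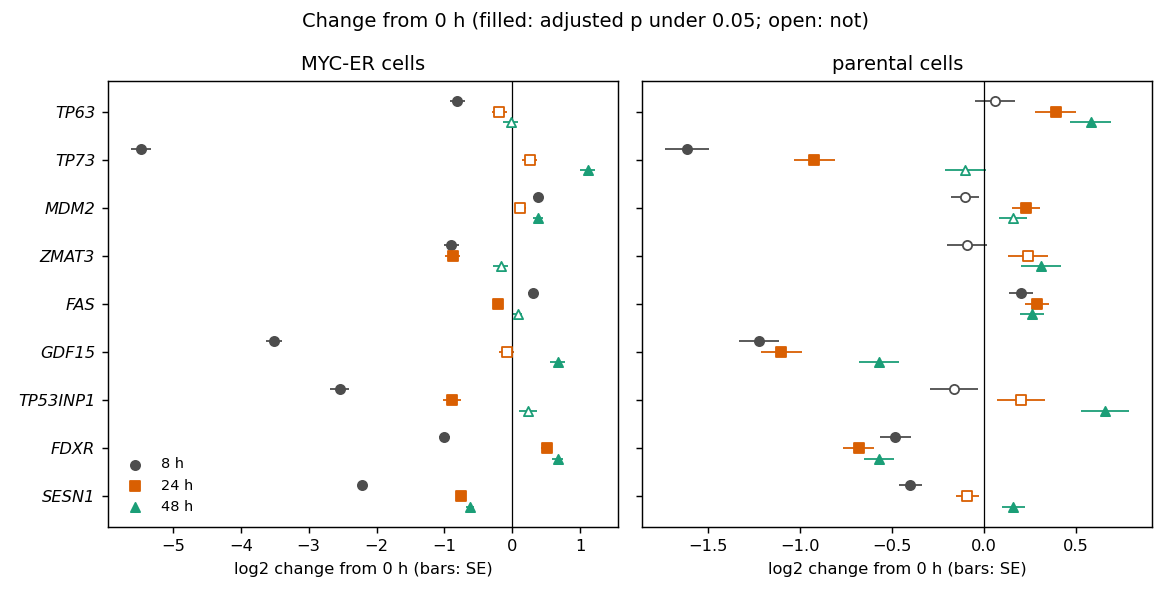
Log2 change from 0 h of each of the 9 genes in MYC-ER (left) and parental cells (right), with bars of 1 SE. The horizontal scales differ; filled symbols have an adjusted p under 0.05, and the largest parental fall, TP73 at 8 h, is log2 -1.61 beside -5.47 in MYC-ER cells.

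Parental cells carry no MYC-ER, and their libraries were compared over the same lengths of 4-OHT. At 8 h TP73, GDF15, FDXR and SESN1 were called lower and FAS higher, 5 of 9 genes, against 31.0% of all genes, 15.0% higher and 16% lower. Values of the latter 3 were log2 -0.48 for FDXR (adjusted p = 0.000222), -0.40 for SESN1 (adjusted p = 8.57e-05) and 0.20 for FAS (adjusted p = 0.0258). At 24 h TP63, MDM2 and FAS were called higher and TP73, GDF15 and FDXR lower, 6 of 9, against 42.9% of all genes, 21.2% higher and 21.7% lower. At 48 h TP63, ZMAT3, FAS, TP53INP1 and SESN1 were called higher and GDF15 and FDXR lower, 7 of 9, against 40.5% of all genes, 20.4% higher and 20.1% lower. The FAS call at 8 h was lost without any of parental 0 h replicates 1 or 3 or parental 8 h replicates 1 or 3 (log2 0.14 to 0.20, adjusted p 0.0534 to 0.163).

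Across genes, parental changes tracked GC content, with Spearman correlations of -0.621, -0.657 and -0.652 at 8, 24 and 48 h over 9784 genes, beside 0.017, -0.063 and 0.026 in MYC-ER cells. FDXR, GDF15 and TP73 have the GC-rich transcripts of the 9 (61.0% to 62.9%), and the other 6 lie between 39.1% and 43.4%. When that trend was removed, a setting chosen after seeing the data, 7 of the 9 were called at 8 h, 5 at 24 h and 3 at 48 h. FAS was no longer called at any time (log2 -0.02, 0.00 and -0.05), while MDM2 (-0.24), TP53INP1 (-0.35) and ZMAT3 (-0.28) were then called lower at 8 h. FDXR was still called lower at the 3 times (log2 -0.22, -0.32 and -0.29). TP73 and GDF15 at 8 h were called lower in all 34 settings run, with log2 from -1.78 to -1.37 and from -1.31 to -0.92. With GC and transcript length trends removed, MDM2 at 24 h was -0.32 and ZMAT3 at 48 h -0.29, both then called lower. With only the 2 groups compared in the fit, 3 of the 9 were called at each parental time. Shares of all genes called with the trend removed or in these smaller fits are not given here.

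ZMAT3 at 48 h (log2 0.31, adjusted p = 0.0248) was 0.51 without parental 0 h replicate 2, and was not called without parental 0 h replicate 1 (0.24) or 3 (0.23) or parental 48 h replicate 1 (0.21). SESN1 at 48 h (log2 0.16, adjusted p = 0.0428) lost its call when any of 13 single libraries was left out (log2 0.12 to 0.16, adjusted p 0.05 to 0.189). These were MYC-ER 0 h replicates 1 and 3, 8 h replicate 1, 24 h replicates 1, 2 and 3 and 48 h replicates 1 and 2, and parental 0 h replicates 1 and 3, 24 h replicate 3 and 48 h replicates 1 and 3.

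Before 4-OHT the lines already differed in 8 of the 9 genes, beside 64.3% of all genes, 31.6% higher and 32.7% lower in MYC-ER. TP53INP1 (52.2 against 19.3 CPM, log2 1.44, SE 0.13, adjusted p = 2.84e-09) and SESN1 (115 against 44.5 CPM, log2 1.36, SE 0.063, adjusted p = 3.63e-14) differed most, and neither overlapped. ZMAT3 (log2 0.66), GDF15 (log2 0.63) and TP63 (log2 0.38) were also higher in MYC-ER cells, and MDM2 (log2 -0.54), FDXR (log2 -0.31) and FAS (log2 -0.18) lower. TP73 was not called, at 19.4 against 18.9 CPM (log2 0.04, adjusted p = 0.792). TP63 was 0.60 without parental 0 h replicate 2 and 0.24 without replicate 3. FAS was -0.08 (adjusted p = 0.171) without parental 0 h replicate 2, and its call was also lost without MYC-ER 0 h replicate 1 or 3 or parental 8 h replicate 1 (log2 -0.16, -0.17 and -0.16). With GC and length trends removed, ZMAT3 was 0.13 (adjusted p = 0.0536) and FDXR 0.07 (adjusted p = 0.254). With only the 2 groups in the fit 5 of the 9 genes were called, and the share of all genes in that fit is not given here.

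At 8 h the order of the lines had turned for several genes: 6 of 9 were called lower in MYC-ER cells and 0 higher, beside 48.6% of all genes called, 25.5% lower and 23.1% higher. TP73 was at 0.438 against 6.18 CPM (14.1-fold, log2 -3.82, adjusted p = 4.48e-15) and GDF15 at 0.623 against 1.97 CPM (3.16-fold, log2 -1.66, adjusted p = 2.01e-10). TP53INP1 (log2 -0.94), FDXR (log2 -0.84), TP63 (log2 -0.48) and SESN1 (log2 -0.44) were lower as well, and TP53INP1, SESN1, GDF15 and TP63 had been higher at 0 h.

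At 24 h TP73, GDF15, TP53INP1, FDXR and SESN1 were higher in MYC-ER cells and MDM2, ZMAT3 and FAS lower, beside 49.4% of all genes called, 23.5% higher and 25.8% lower. The TP53INP1 call (log2 0.35, adjusted p = 0.0279) was lost when MYC-ER 24 h replicate 2 or 3 or any of the 3 parental 24 h libraries was left out (log2 0.30 to 0.36, adjusted p 0.0577 to 0.0993). At 48 h these 5 genes were higher and MDM2 and FAS lower, beside 56.7% of all genes called, 27.3% higher and 29.4% lower. GDF15 was then 3.65-fold higher (11.3 against 3.11 CPM, log2 1.87, SE 0.11), TP73 2.38-fold (log2 1.25, SE 0.11), TP53INP1 2.01-fold (log2 1.01, SE 0.13), FDXR 1.91-fold (log2 0.93, SE 0.083) and SESN1 1.49-fold (log2 0.58, SE 0.063). MDM2 at 48 h (log2 -0.31, adjusted p = 0.00143) was not called with scaling by library size alone (log2 -0.17, adjusted p = 0.117).

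**Figure D3:**
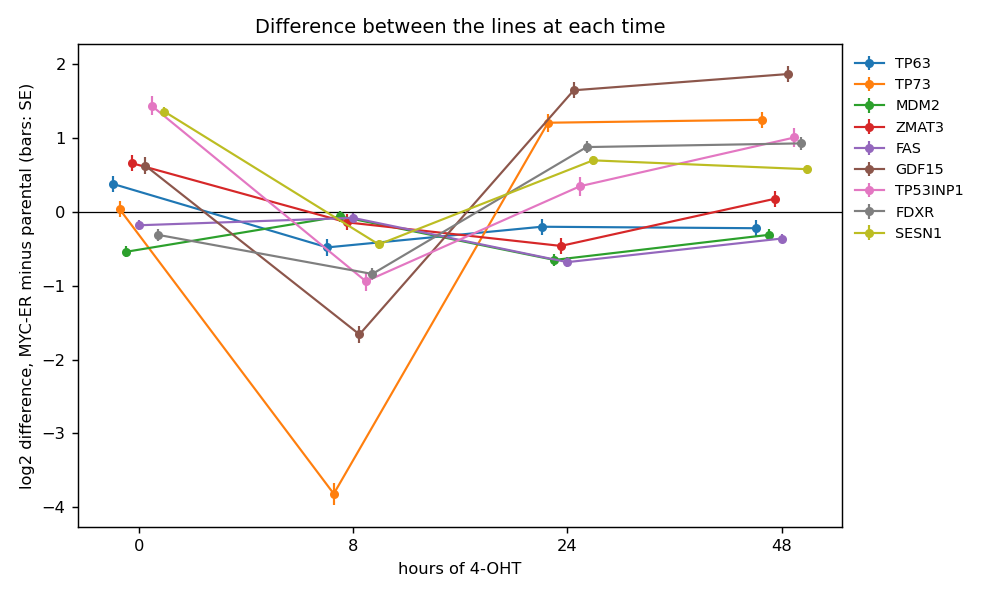
Log2 difference between the lines, MYC-ER minus parental, for each gene at each length of 4-OHT, with bars of 1 SE. TP53INP1 and SESN1 start above 1, 6 genes are called below 0 at 8 h, and GDF15, TP73, TP53INP1, FDXR and SESN1 lie above 0 at 24 and 48 h.

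Whether the response to 4-OHT itself differed between the lines was tested as the change in MYC-ER cells less that in parental cells. It differed for 8 of the 9 genes at 8 h, where 55.2% of all genes were called, with FAS the exception (log2 0.10, adjusted p = 0.381). FAS was called with the GC trend removed (log2 0.45, adjusted p = 3.56e-06) and with GC and length trends removed (log2 0.41, adjusted p = 3.41e-06). The extra fall in MYC-ER cells was log2 -3.86 for TP73 (SE 0.19, adjusted p = 1.65e-13), -2.38 for TP53INP1 (SE 0.19), -2.29 for GDF15 (SE 0.16) and -1.81 for SESN1 (SE 0.089), and MDM2 rose by 0.48 more (SE 0.11, adjusted p = 0.000638). At 24 h 8 genes differed, beside 54.5% of all genes, with TP73, GDF15 and FDXR above the parental change and TP63, ZMAT3, FAS, TP53INP1 and SESN1 below it. At 48 h 6 differed, beside 45.0% of all genes, with TP73, GDF15 and FDXR above and TP63, ZMAT3 and SESN1 below. Those of TP73, GDF15 and FDXR were log2 1.21, 1.24 and 1.25, and 0.71, 0.70 and 0.72 with the GC trend removed, all still called. ZMAT3 at 48 h (log2 -0.48, adjusted p = 0.0123) was 0.10 with GC and length trends removed and was not called with scaling by library size alone (log2 -0.38, adjusted p = 0.0862). MDM2 at 48 h was not called (log2 0.22, adjusted p = 0.0967). It was called higher with the GC trend removed (0.26), with GC and length trends removed (0.74), and with scaling by library size alone (0.33) or upper quartile (0.30). TP53INP1 at 48 h (log2 -0.43, adjusted p = 0.0596) was called with DESeq2's Wald test (log2 -0.42, adjusted p = 0.0464).

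Other genes that p53 is known to switch on, 55 in 5 lists by role and all tested, were split at 8 h in MYC-ER cells, with 20 called higher and 27 lower and a median log2 change of -0.21 (all genes 32.2% higher, 35.4% lower, median -0.10). At 24 h 19 were higher and 30 lower with a median of -0.20 (all genes 30.4%, 31.2%, median -0.02). At 48 h 24 were higher and 10 lower with a median of 0.19 (all genes 23.4%, 20.7%, median 0.03). In parental cells 10 were higher and 11 lower at 8 h (all genes 15.0% and 16%), 13 and 18 at 24 h (21.2% and 21.7%), and 12 and 15 at 48 h (20.4% and 20.1%).

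DNA repair genes, 5 in all, were each called lower at 8 h against 0 h in MYC-ER cells, beside 35.4% of all genes lower. Each was called higher at 24 h against the same 8 h libraries, beside 28.4% of all genes higher. DDB2, which finds ultraviolet damage in DNA, fell from 48.5 ± 0.249 to 8.25 ± 0.405 CPM (SD, n = 3; log2 -2.55, SE 0.056, adjusted p = 1.33e-19) and was above 0 h at 48 h (82.3 CPM, log2 0.76). XPC, its partner in nucleotide excision repair, had log2 -1.32 at 8 h and -0.51 at 24 h. POLH, a polymerase that copies past damage, had -1.06, RRM2B, a ribonucleotide reductase subunit, -0.81, and RPS27L -0.74 at 8 h.

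Growth arrest genes, 10 in all, were mixed at 8 h, with 4 called higher and 3 lower (median 0.03), beside 32.2% and 35.4% of all genes. PLK3, a stress-response kinase, rose from 3.87 to 33.8 CPM (log2 3.13, SE 0.082, adjusted p = 2.07e-18), and CCNG1, the cyclin G1 gene, fell from 233 to 84.9 CPM (log2 -1.46, adjusted p = 1.25e-14). Parental cells at 0 h had 20.4 CPM of PLK3 and 124 CPM of CCNG1. CDKN1A, the p21 inhibitor of cell-cycle kinases, was not called at 8 h in MYC-ER cells (234 to 219 CPM, log2 -0.09, adjusted p = 0.144). It was lower there at 24 h (log2 -0.35) and 48 h (log2 -0.27). In parental cells CDKN1A was also lower at 24 h (log2 -0.18) and 48 h (288 to 206 CPM, log2 -0.48). The MYC-ER change less the parental one was not called at 24 h (log2 -0.17, adjusted p = 0.0767). At 48 h it was 0.21 (adjusted p = 0.0321), a smaller fall in MYC-ER cells. E2F7, a repressor of cell-cycle genes, rose in MYC-ER cells from 1.70 to 44.1 CPM at 24 h (log2 4.70, adjusted p = 3.26e-16). Parental E2F7 also rose, from 18.4 CPM at 0 h to 39.9 CPM at 24 h (log2 1.11, adjusted p = 4.94e-06). At 24 h E2F7 was not called between the lines (log2 0.15, adjusted p = 0.415). Its MYC-ER change less the parental one was log2 3.59 at that time, which was called. In MYC-ER cells the list had 5 higher and 2 lower at 24 h (all genes 30.4% and 31.2%) and 6 higher and 1 lower at 48 h (23.4% and 20.7%).

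Cell death genes, 16 in all, had 6 called higher and 7 lower at 8 h (median -0.13), 6 and 9 at 24 h, and 5 and 4 at 48 h. Of all genes 32.2% were higher and 35.4% lower at 8 h, 30.4% and 31.2% at 24 h, and 23.4% and 20.7% at 48 h. AEN, a nuclease of apoptosis, rose from 21.1 to 47.2 CPM at 8 h (log2 1.16, adjusted p = 1.20e-15), and PIDD1, a death-domain adaptor, fell from 69.4 to 22.5 CPM (log2 -1.63, adjusted p = 2.05e-13). Parental cells at 0 h had 43.5 CPM of AEN. Parental PIDD1 was also lower at 8 h (55.6 to 36.3 CPM, log2 -0.61, adjusted p = 1.90e-05). In MYC-ER cells PERP, a desmosome protein, was lower at 24 h (2115 to 916 CPM, log2 -1.21) and at 48 h (log2 -0.58). BBC3, the gene of the death-promoting protein PUMA, went from 9.91 to 1.72 CPM at 8 h (log2 -2.53) and to 18.4 CPM at 48 h (log2 0.90, adjusted p = 5.97e-07).

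Metabolism and autophagy genes, 11 in all, had 5 higher and 4 lower at 8 h, 3 and 7 at 24 h, and 4 and 3 at 48 h (all genes 32.2% and 35.4%, 30.4% and 31.2%, and 23.4% and 20.7%). GLS2, the liver-type mitochondrial glutaminase, rose from 1.19 to 44.6 CPM at 24 h (log2 5.23, SE 0.13, adjusted p = 9.07e-19), and the autophagy gene DRAM1 fell from 25.5 to 10.9 CPM (log2 -1.23). Parental cells at 0 h had 7.28 CPM of GLS2 and 12.9 CPM of DRAM1. In MYC-ER cells SESN2, the paralogue of SESN1, had log2 -0.58 at 8 h, -0.34 at 24 h and -0.31 at 48 h, all called. Parental SESN2 was called lower as well, with log2 -0.55, -0.48 and -0.34 at these times. The MYC-ER change less the parental one was not called at any of them (log2 -0.03, 0.14 and 0.03). Signalling and other targets, 13 in all, were counted in MYC-ER cells beside the same shares of all genes. There 5 were higher and 8 lower at 8 h, 4 and 9 at 24 h, and 7 and 2 at 48 h. TRIM22, an interferon-inducible ubiquitin ligase, fell from 42.7 to 4.56 CPM at 8 h (log2 -3.22, SE 0.099), and SERPINB5, the maspin gene, rose from 755 to 2629 CPM (log2 1.80, SE 0.056). Parental cells at 0 h had 11.6 CPM of TRIM22 and 1917 CPM of SERPINB5. In MYC-ER cells KITLG, the ligand of the KIT receptor, rose at 24 h (4.86 to 11.8 CPM, log2 1.28), and CYFIP2 at 48 h (18.5 to 68.2 CPM, log2 1.88). Parental KITLG also rose at 24 h (5.16 to 10.2 CPM, log2 0.99, adjusted p = 0.000702).

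**Figure D4:**
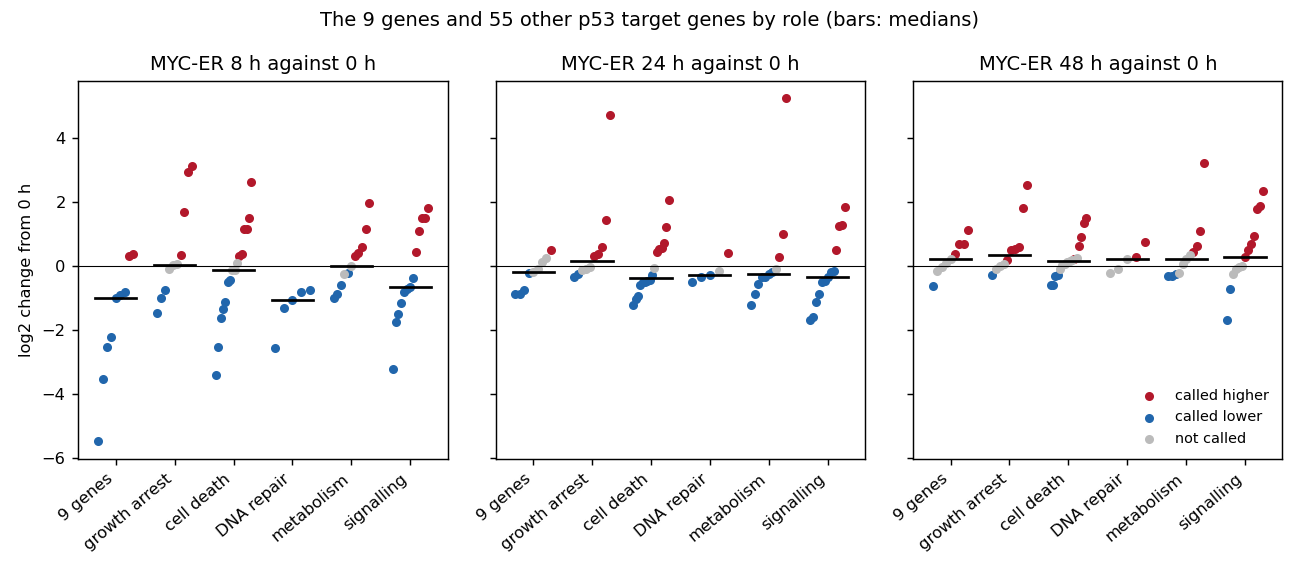
Log2 change from 0 h in MYC-ER cells at 8, 24 and 48 h for the 9 genes and for 55 other p53 targets in 5 lists by role. Each point is a gene (red called higher, blue called lower, grey not called) and bars are medians; all 5 DNA repair genes are blue at 8 h, when the growth arrest list has a median of 0.03.

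Regulators of p53 and MDM2, 19 tested of 20, had 7 higher and 7 lower at 8 h in MYC-ER cells, 6 and 8 at 24 h, and 5 and 4 at 48 h. Among all genes the shares higher and lower were 32.2% and 35.4%, 30.4% and 31.2%, and 23.4% and 20.7% at these times. MDM4, the MDM2 relative that holds p53 inactive, was lower at 8 h (83.5 to 52.4 CPM, log2 -0.67, adjusted p = 6.81e-05) and 24 h (log2 -0.55) and higher at 48 h (114 CPM, log2 0.45). Damage kinases were among the genes that rose, with PRKDC at log2 1.76 at 8 h and CHEK2 at 2.47 at 24 h. CHEK2 went from 7.69 to 42.6 CPM, beside 19.7 CPM in parental cells at 0 h. The acetyltransferase gene CREBBP fell at 8 h (log2 -0.74), and HIPK2, a kinase that phosphorylates p53, fell at 24 h (212 to 66.4 CPM, log2 -1.68). HIPK2 was also higher in MYC-ER than in parental cells at 0 h (212 against 58.0 CPM, log2 1.87).

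Of the FAS death receptor pathway 9 of 10 genes were tested, and the ligand gene FASLG had 0 to 4 counts per library. At 8 h in MYC-ER cells 5 were higher and 3 lower, beside 32.2% and 35.4% of all genes. CASP8, the first caspase of the pathway, rose from 27.2 to 50.2 CPM (log2 0.89, adjusted p = 1.10e-11), FADD, its adaptor, from 28.8 to 47.2 CPM (log2 0.72), and CFLAR, the pathway's inhibitor FLIP, fell from 154 to 62.1 CPM (log2 -1.31, adjusted p = 1.50e-12). Before 4-OHT, parental cells had 39.1 CPM of CASP8, 47.4 of FADD and 63.9 of CFLAR. MYC-ER cells thus started lower in CASP8 (log2 -0.52) and FADD (log2 -0.72) and higher in CFLAR (log2 1.27). At 8 h CASP8 (parental 49.1 CPM) and CFLAR (parental 69.9 CPM) were not called between the lines. FADD was then higher in MYC-ER cells (parental 41.5 CPM, log2 0.19). By 24 h in MYC-ER cells 3 of the 9 genes were higher and 6 lower (all genes 30.4% and 31.2%), and CFLAR was at 49.1 CPM (log2 -1.65).

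Epithelial targets of p63, 17 in all, had 6 higher and 9 lower at 8 h, 8 and 8 at 24 h, and 9 and 6 at 48 h in MYC-ER cells. The shares over all genes were 32.2% and 35.4% at 8 h, 30.4% and 31.2% at 24 h, and 23.4% and 20.7% at 48 h. S100A2, a calcium-binding protein gene of basal cells, rose from 490 to 5814 CPM at 8 h (log2 3.57, SE 0.12, adjusted p = 1.08e-16), and DST, whose product anchors keratin at hemidesmosomes, fell from 1261 to 254 CPM (log2 -2.31). Parental cells at 0 h had 7286 CPM of S100A2, above the MYC-ER level at 8 h, and 704 CPM of DST. In MYC-ER cells FGFR3 at 24 h (log2 -1.56) and COL17A1 at 48 h (log2 -0.99) had the largest called falls of the list among genes reaching 10 CPM. Parental FGFR3 also fell at 24 h (211 to 128 CPM, log2 -0.72, adjusted p = 2.32e-08). KRT14, a basal keratin, stood at 626 CPM in MYC-ER and 9725 CPM in parental cells at 0 h (log2 -3.96, SE 0.12, adjusted p = 1.29e-17).

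Likeness of course was described by Pearson's r of log2 CPM over the 24 libraries, which share groups of 3 and all 8 conditions, among 10778 genes. Between the 9 genes, the most alike were TP73 and GDF15 (r = 0.930), FDXR and GDF15 (0.917), and SESN1 and TP53INP1 (0.911). Next came GDF15 with TP53INP1 (0.878) and with SESN1 (0.873), and FDXR with TP73 (0.873). TP73 with TP53INP1, and FAS with MDM2, each had 0.830. Nearest to TP73 were INPP5D and PLIN4 (both 0.979), and nearest to GDF15 were KMT5C (0.981) and MIR34AHG (0.978), the host gene of a microRNA that p53 is known to induce. MIR34AHG stood at 24.6, 3.67, 21.1 and 34.3 CPM at the 4 MYC-ER times and at 14.7, 9.35, 10.1 and 13.8 CPM at the parental ones. SESN1 was nearest to SOX6 (0.992) and FBXL20 (0.985), TP53INP1 to ATOSA (0.987) and ADD3 (0.985), FDXR to COQ8B (0.973) and TKFC (0.962), and ZMAT3 to NFE2L2 (0.953) and MAT2B (0.950). TP63 was nearest to PHACTR4 (0.953) and UTRN (0.943), FAS to JAG1 (0.955) and CEMIP2 (0.941), and MDM2 to SKIL (0.928) and RAB27B (0.919).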

How the data were processed

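RNA-seq libraries of 24 cultures were used (2 lines, 4 times, 3 replicates). The authors deposited 1 table of raw counts, whole numbers by gene and library, made from poly(A)-selected, stranded, paired-end reads. Per the submitters' processing notes the tools were Trimmomatic 0.39, STAR and StringTie 2.1.3b with GRCh38; the counting step, the annotation release and the use of strand are not given in the sources used here. If StringTie's coverage was the source, the counts are estimates.

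Totals were 136860029 to 182438505 per library. Here edgeR 4.0.16 (R 4.3.3) was run on the counts of all 24 libraries: filterByExpr kept 22158 of 60668 genes, TMM scaling was applied, 1 mean was fitted per group, and quasi-likelihood F tests, two-sided, were adjusted by Benjamini-Hochberg over all genes tested in each of 15 contrasts at 0.05. CPM are TMM-scaled; correlations used log2 CPM with a prior count of 2. Matching by Ensembl identifier named 60340 rows. On simulated counts for MYC-ER 8 h against 0 h (20503 genes), 97 of 100 genes changed 2-fold, 82 of 100 changed 1.5-fold and 13 of 20303 unchanged genes were called. That simulation left all other genes unchanged, with as many rises as falls among the changed ones. In the data 67.6% of genes were called in this contrast, so these rates need not hold there.

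Alternatives were DESeq2 1.42.0, other scalings and filters, fits of only the groups compared, the replicate block, removal of GC and length trends (added after seeing the data), and leaving out each library, 34 settings in all. The 9 genes and all lists were chosen with earlier results of these data known. Of each list the text names the called gene with the largest rise and fall per contrast (at least 10 CPM in the higher group, replicates apart); BBC3 and CDKN1A at 8 h, XPC, POLH, RRM2B, RPS27L, SESN2, MDM4 and FADD were added after their values were seen.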

Additional observations from a re-analysis of the deposited data

Results flagged for a closer look

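The change from 0 h differed between MYC-ER and parental cells, by a test of the difference itself (edgeR's quasi-likelihood test, Benjamini-Hochberg adjusted over all genes), in 22 of 27 results for the 9 genes, 3 times each. Of all genes 55.2% were called by this test at 8 h, 54.5% at 24 h and 45.0% at 48 h. Values below are the MYC-ER log2 change minus the parental one. At 8 h the difference was -3.86 for TP73, -2.38 for TP53INP1, -2.29 for GDF15, -1.81 for SESN1, -0.87 for TP63, -0.81 for ZMAT3, -0.53 for FDXR and 0.48 for MDM2. At 24 h it was 1.19 for FDXR, 1.18 for TP73, 1.02 for GDF15, -0.50 for FAS, -0.58 for TP63, -0.67 for SESN1, -1.09 for TP53INP1 and -1.12 for ZMAT3. At 48 h it was 1.25 for FDXR, 1.24 for GDF15, 1.21 for TP73, -0.48 for ZMAT3, -0.60 for TP63 and -0.79 for SESN1. TP73, GDF15 and FDXR thus changed sign between 8 h and the later times, and adjusted p-values ran from 1.65e-13 (TP73 at 8 h) to 0.0123 (ZMAT3 at 48 h). With GC and length trends removed, the 48 h difference was 0.64 for FDXR and 0.57 for GDF15, and with the GC trend alone removed it was 0.71 for TP73. With both removed, the 24 h difference was 0.73 for FDXR, 0.50 for GDF15, -0.66 for TP53INP1, -0.51 for ZMAT3 and -0.33 for TP63, and the 8 h difference was -0.35 for ZMAT3 and 0.96 for MDM2. Each of these kept its call.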

How the results depend on the processing

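Of 135 results (9 genes in 15 contrasts) 102 were called, and 83 of these kept their call in all 34 settings. All 9 falls and rises at 8 h in MYC-ER cells were among them. Replicate numbers did not pair the libraries: of 84 pairs with the same number 0 had a correlation of deviations over 0.1 (-0.078 to 0.094), 10 of 24 libraries correlated best with their own number, and the fit with the replicate block left all 135 results on the same side. Counts of the 9 genes called that moved by more than 1.5 times were as follows, the main count in parentheses. Fitting only the groups compared gave 8 for MYC-ER 24 h and 8 for 48 h (5 each), 3 for parental 8 h (5), 3 for 24 h (6) and 3 for 48 h (7), and 5 for MYC-ER against parental at 0 h (8). Removing GC and length trends gave 8 for MYC-ER 24 h, and removing the GC trend gave 3 for parental 48 h. Smaller moves included 9 for MYC-ER 48 h against 24 h with only the groups compared (6), with FDXR, SESN1 and TP63 gained, and 7 for parental 8 h with the GC trend removed (5). Shares of all genes called in these settings are not given here.

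Among results called in the main analysis or in the alternative, directions turned only with those trends removed. Some uncalled values near 0 also changed sign when 1 library was left out, such as parental TP53INP1 at 8 h (-0.16, and 0.08 without parental 0 h replicate 2). With the GC trend removed, ZMAT3 from 8 to 24 h in MYC-ER was -0.23, and parental FAS was -0.02 at 8 h and -0.05 at 48 h. With GC and length removed, parental FAS was -0.01 at 8 and 48 h. Parental MDM2 was then -0.32 at 24 h and -0.41 at 48 h, ZMAT3 -0.34 and -0.29, TP53INP1 -0.22 at 24 h, and SESN1 -0.02 at 48 h. Between the lines FDXR was 0.07 at 0 h and FAS 0.14 at 8 h. The difference in change was 0.45 for MDM2 at 24 h and 0.10 for ZMAT3 at 48 h. The cause was not tested. Scaling by library size alone moved the median of all genes by up to 0.206. Depth limits TP73 and GDF15 at 8 h in MYC-ER cells, at 58 to 102 counts per library.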
